A study of Mus musculus with 12 samples.

Results

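Gm11942 and 6 genes that varied with it between libraries are described here, in bulk RNA from mouse brain. The members are Gm11942, Gm17511, 9330104G04Rik, Eps8l1, Cacng6, Exoc3l2 and Irgc1, which are 7 of the 43629 gene IDs counted. They were chosen by symbol from earlier results of these same counts, because their levels across the libraries followed those of Gm11942. Their split between libraries is therefore a description. Calls of members in a contrast close to it, male against female, were set by this choice and support nothing. All 7 passed the filter on low counts, which kept 19145 genes.

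Poly(A) RNA was sequenced from the forebrain of 3-month-old mice in 12 libraries. Of these, 3 were labelled collagen domain male and 3 collagen domain female, from mice that received at birth, into the cerebral ventricles, a recombinant adeno-associated virus carrying a collagen domain construct. By the series title, the construct comes from C1qTNF3, one of the secreted C1q/TNF-related proteins. The other libraries were labelled PBS male (3) and PBS female (3), from newborns given PBS, a buffered saline, in the same way. No group here received a vector without the construct. Strain, genotype and litter are not given in the sources used here. The labels do not say that each library came from a separate mouse, so a p-value reflects the spread among libraries, which may be technical.

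Each library had between 39272127 and 52323985 counted reads, with mitochondrial genes at 7.37 to 9.86%. The reads went against a label in 5 of the 12 libraries: in 4 by treatment, in 4 by sex and in 3 by both. For treatment, the measure was whether C1qtnf3 had at least 1000 reads, and for sex which of Xist and Ddx3y was higher. These were the libraries labelled collagen domain male 3, collagen domain female 1, collagen domain female 3, PBS male 1 and PBS female 2. Library names below are the labels. Log2 fold changes by label are given from all 12 libraries and, for some members, also without these 5.

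Laboratory mouse strains differ in many single bases, some of which change how strongly a nearby gene is transcribed. Genes that lie close together on a chromosome tend to be inherited as a block, called a haplotype. In a colony of mixed background, such genes can therefore be high or low in the same animals. A processed pseudogene is a copy of a spliced messenger RNA inserted back into the genome. It can be so like its parent gene that short reads are hard to assign to one of them.

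The working name of the set, proximal chromosome 7 genes, held for 5 of the 7 members. In the GRCm38 annotation used for names, Cacng6 was number 6, Eps8l1 number 28, 9330104G04Rik number 147, Exoc3l2 number 190 and Irgc1 number 225 in order among the tested genes of chromosome 7. Gm17511 was also on chromosome 7 but at number 1170, far from the others. Gm11942 was annotated on chromosome 4. The submitters' processing notes name another build, GRCm39, so order is given here and gene coordinates are not.

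Gm11942 and Gm17511 are annotated as processed pseudogenes and are close in sequence to Rplp1, which encodes the acidic stalk protein P1 of the large ribosomal subunit. Gm10073 is a protein-coding copy on chromosome 8. Over its whole length of 345 bases, Gm11942 was 97.4% identical to Rplp1 and 97.7% to Gm10073. It was 94.2% identical to Gm17511 over 342 aligned bases.

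Transcripts at least 85% identical over at least 200 bases numbered 16 for Gm11942 and 17 for Gm17511. For each pseudogene, 3 of its copies were expressed enough to be tested. How reads that match several of them were assigned is not given in the sources used here, so the levels of both pseudogenes are uncertain. The other 5 members had 0 such copies.

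Gm11942 was at either a high or a low level, with no library between. In reads scaled to a common library size by TMM and given as CPM, it stood at 42.4, 38.8 and 32.5 in collagen domain males 1 to 3 and at 1.92, 0.907 and 1.65 in collagen domain females 1 to 3. It stood at 27.8, 27.3 and 1.78 CPM in PBS males 1 to 3 and at 2.21, 1.60 and 1.08 CPM in PBS females 1 to 3. The 5 high libraries were thus the 3 labelled collagen domain male and 2 of the 3 labelled PBS male, with PBS male 3 among the low ones. The lowest high library was 12.3 times the highest low one. In reads, the range over the 12 libraries was 42 to 1724.

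Gm17511 split the libraries the same way at a lower level. It had 2.38, 1.28 and 1.93 CPM in collagen domain males and 0.209, 0.151 and 0.186 CPM in collagen domain females. It had 1.28, 1.46 and 0.0785 CPM in PBS males and 0.313, 0.229 and 0.226 CPM in PBS females. The lowest high library was 4.09 times the highest low one, and counts ran from 3 to 97 reads.

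Rplp1 itself, on chromosome 9, did not split in this way. It ranged from 339 to 645 CPM, and Gm10073 from 15.7 to 32.1 CPM. Gm11942 amounted to between 5.60 and 10.5% of the Rplp1 level in the 5 libraries where it was high, and to between 0.268 and 0.460% in the other 7. The highest Rplp1 level, 645 CPM in PBS female 1, stood beside a Gm11942 level of 2.21 CPM.

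9330104G04Rik, annotated as a long intergenic non-coding RNA, followed Gm11942 with a smaller step. It was at 5.13, 4.59 and 5.03 CPM in collagen domain males and 2.71, 2.79 and 3.49 CPM in collagen domain females. In PBS males it was at 5.72, 5.13 and 3.09 CPM, and in PBS females at 3.01, 2.60 and 2.66 CPM. The 5 libraries with high Gm11942 did not overlap with the other 7, and the edges of the groups were a factor of 1.31 apart.

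Eps8l1 encodes a relative of Eps8, an adaptor that links growth factor receptors to the actin cytoskeleton. It was at 10.3, 5.99 and 6.72 CPM in collagen domain males, and at 3.89, 3.91 and 2.58 CPM in collagen domain females. It was at 9.28, 8.26 and 1.62 CPM in PBS males, and at 1.57, 2.17 and 1.94 CPM in PBS females. Its high libraries were again those of Gm11942, and the lowest of them was 1.53 times the highest low one. Among the low libraries, those labelled collagen domain female were at 2.58 CPM or more and the 4 labelled PBS at 2.17 CPM or less. This difference is by label only. Collagen domain females 1 and 3, at 3.89 and 2.58 CPM, had 23 and 8 C1qtnf3 reads, against their label. Collagen domain female 2 and PBS female 2, at 3.91 and 2.17 CPM, had 4966 and 1071.

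Cacng6 ran in the opposite direction. It encodes the gamma-6 auxiliary subunit of voltage-gated calcium channels. Its levels were 1.20, 0.955 and 1.37 CPM in collagen domain males, against 5.31, 3.82 and 5.22 CPM in collagen domain females. In PBS males they were 1.39, 0.871 and 4.08 CPM, and in PBS females 5.16, 4.89 and 4.55 CPM. The lowest of its 7 upper libraries was 2.75 times the highest of the 5 lower ones.

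Exoc3l2, which encodes a protein related to the exocyst subunit Sec6, also ran opposite to Gm11942. It was at 0.197, 0.396 and 0.310 CPM in collagen domain males and at 0.858, 1.17 and 0.815 CPM in collagen domain females. In PBS males it was at 0.221, 0.235 and 0.654 CPM, and in PBS females at 1.11, 1.06 and 0.717 CPM. The groups were a factor of 1.65 apart at their edges.

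Irgc1, a member of the immunity-related GTPase family known mainly from the testis in mice, had too few reads to place each library. It had 2, 4 and 1 reads in collagen domain males and 10, 10 and 14 in collagen domain females. In PBS males it had 3, 6 and 3 reads, and in PBS females 11, 12 and 15. By its widest gap, 11 of 12 libraries fell as for Cacng6, and PBS male 3 fell on the other side. The 2 sets of libraries overlapped, at 0.0222 to 0.141 CPM where Gm11942 was high and 0.0785 to 0.326 CPM where it was low.

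**Figure D1:**
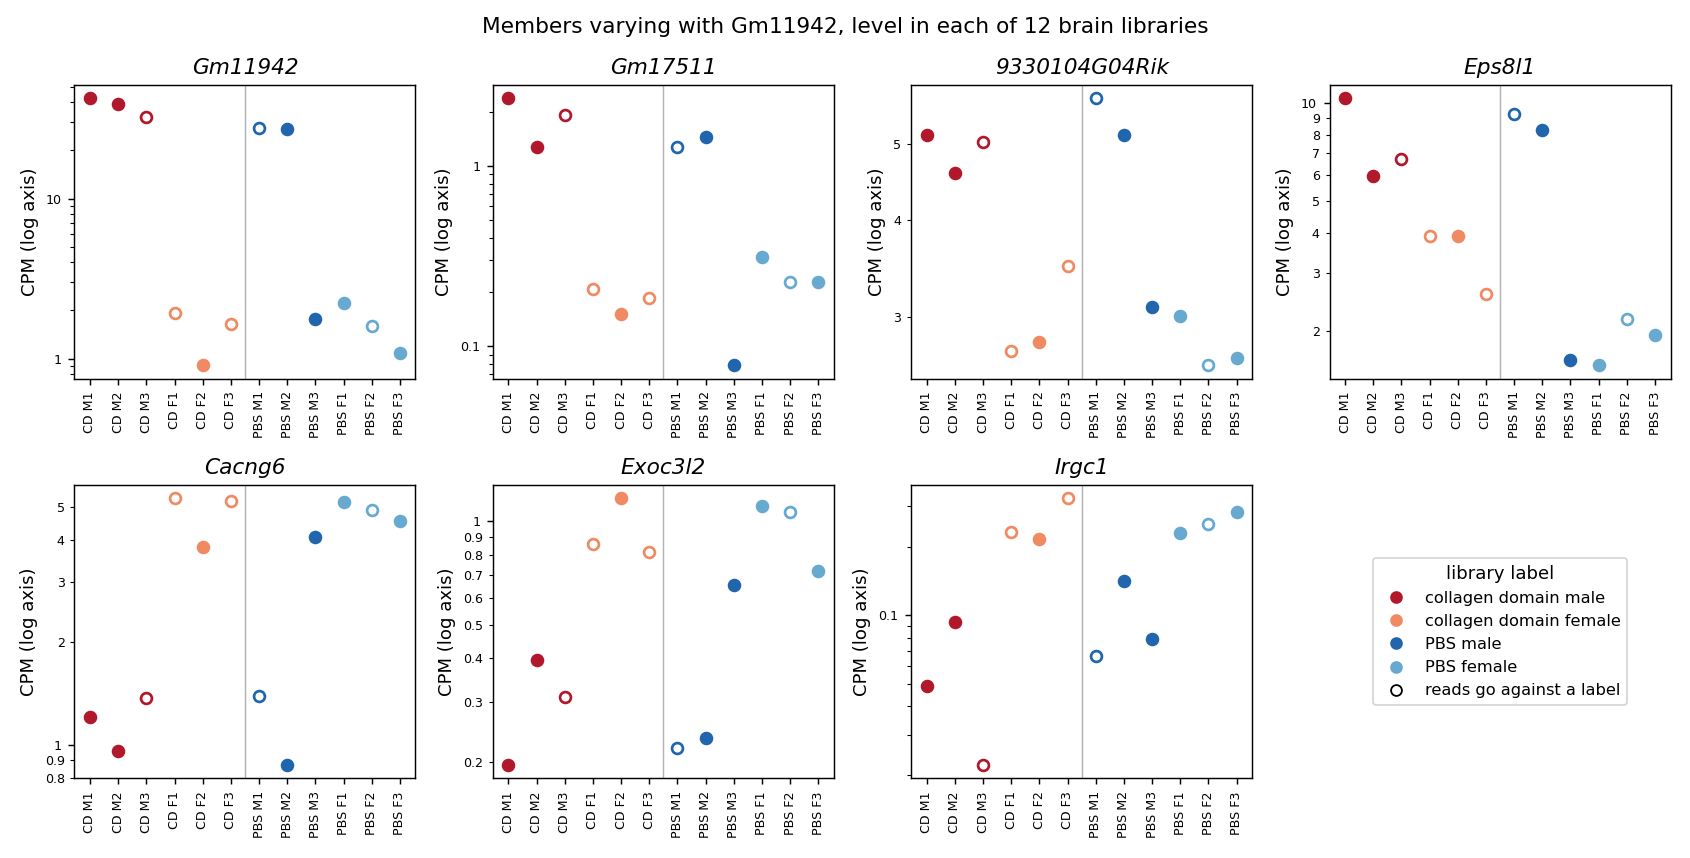
Level of each member in CPM (log axis) in the 12 libraries, named as collagen domain (CD) or PBS, male (M) or female (F), with 1 point per library and open points for the 5 libraries whose reads go against a label. The 4 genes of the upper row are high in the same 5 libraries, and Cacng6 and Exoc3l2 are low in them, with Irgc1 at 15 reads or fewer throughout.

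Per kilobase of annotated exon, the median level over the 12 libraries was highest for Gm11942, at 5.996 CPM per kb. Cacng6 followed at 2.00, 9330104G04Rik at 0.937, Gm17511 at 0.793, Eps8l1 at 0.646, Exoc3l2 at 0.171 and Irgc1 at 0.0637 CPM per kb. Each gene's range across libraries overlapped that of its neighbour in this order. These ranges take in both the high and the low libraries and do not compare genes within a library. Whether adjacent genes differed was therefore not tested.

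The promoters of a member that ran with Gm11942 and of one that ran against it are shown, since these genes moved together or apart in the same libraries. RefSeq promoter windows of GRCm38.p6, from 250 bases before to 50 after a start, matched 4 of the 7 members. Capitals mark a GC box (GGGCGG) or a CCAAT box (CCAAT) on either strand.
Eps8l1, chr7:4460447-4460746, plus strand: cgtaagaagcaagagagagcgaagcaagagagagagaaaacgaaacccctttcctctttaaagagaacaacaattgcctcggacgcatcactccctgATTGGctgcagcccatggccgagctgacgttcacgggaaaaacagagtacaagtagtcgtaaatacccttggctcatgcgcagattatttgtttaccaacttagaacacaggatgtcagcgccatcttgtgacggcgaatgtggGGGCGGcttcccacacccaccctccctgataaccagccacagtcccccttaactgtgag
Cacng6, chr7:3424412-3424711, plus strand: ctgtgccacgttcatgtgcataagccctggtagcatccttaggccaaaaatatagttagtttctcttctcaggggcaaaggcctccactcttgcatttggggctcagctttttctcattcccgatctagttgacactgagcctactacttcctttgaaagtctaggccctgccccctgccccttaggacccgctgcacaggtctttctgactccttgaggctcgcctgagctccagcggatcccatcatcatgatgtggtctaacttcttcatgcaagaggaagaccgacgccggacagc
This Eps8l1 window, 1 of 3 listed for the gene, held 1 GC box and 1 CCAAT box. The Cacng6 window held neither of them, nor a TATA box (TATAAA) nor an E-box (CACGTG). The window of Exoc3l2, which also ran against Gm11942, held 3 GC boxes and 0 CCAAT boxes. That of 9330104G04Rik, which ran with Gm11942, held 3 GC boxes and 3 CCAAT boxes, with 2 TATA boxes and 1 E-box. The windows of Eps8l1 and Exoc3l2, like that of Cacng6, held no TATA box and no E-box. The other Eps8l1 windows each held 1 GC box and 0 CCAAT boxes. Of 32851 mouse promoter windows of this length, 35.7% held a GC box, 37.4% a CCAAT box, 13.6% a TATA box and 7.15% an E-box. These are matches of letters, and no factor's binding was measured. Base differences between the mice cannot be read from a count table.

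To set the members beside the other genes, the log2 CPM of each tested gene was split at its widest gap, with at least 2 libraries on each side. The number of libraries on the same side as for Gm11942 was then counted, with a reversed split counted as opposite. Because the better direction was kept, this number cannot fall below 6, and 57.2% of genes stood at 7. Of 19145 genes, 13 (0.0679%) divided all 12 libraries as Gm11942 did, and 57 (0.298%) at least 11 of them. The members supply 6 of the 13 and 7 of the 57, which the choice of members fixes. Gm17511, 9330104G04Rik and Eps8l1 had the same direction, and Cacng6 and Exoc3l2 the opposite one.

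Along chromosome 7, 220 tested genes lay from Cacng6 to Irgc1. With the 5 members among them left out, 4 of 215 (1.86%) matched in 12 libraries and 11 (5.12%) in at least 11. In the rest of chromosome 7, 0 of 1159 matched in 12 and 3 (0.259%) in at least 11. Outside this stretch, over all chromosomes, 3 of 18923 (0.0159%) matched in 12 and 39 (0.206%) in at least 11. The shares are descriptive, because genes in a stretch are not independent and its ends were set by members. Genotypes were not measured in these files, so whether the split follows an inherited block was not tested.

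**Figure D2:**
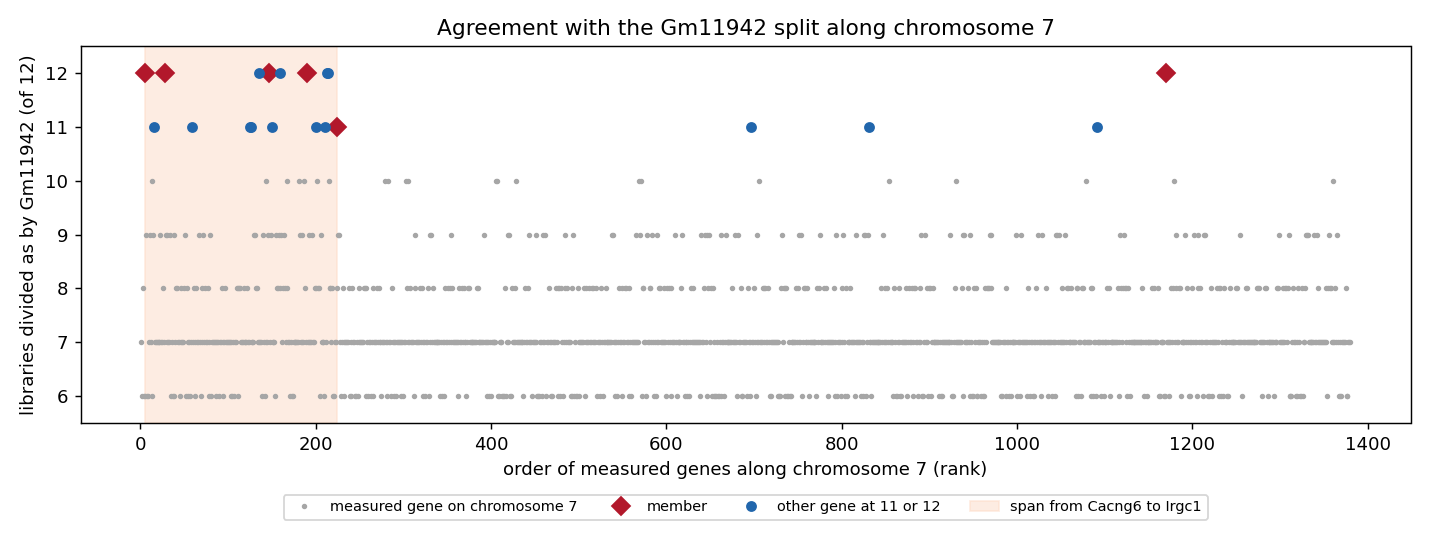
Number of the 12 libraries (vertical axis) on the same side of a gene's widest gap as for Gm11942, for each tested gene of chromosome 7 in annotation order (horizontal axis, rank from 1). With members left out, 11 of 215 genes between Cacng6 and Irgc1 (5.12%) matched in 11 or 12 libraries, and 3 of 1159 in the rest of the chromosome (0.259%). Over all tested genes the share was 0.298%. The members, among them Gm17511 at rank 1170, were chosen for this match.

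The 4 other genes in the stretch that matched in 12 libraries had small steps, and were picked out after their values were seen. Ccdc61, which encodes a centriole protein, was at 6.003 to 7.13 CPM where Gm11942 was high and 4.29 to 5.26 CPM where it was low. The zinc-finger gene Zfp180 was at 58.2 to 63.2 CPM where Gm11942 was high and 49.2 to 55.5 CPM where it was low. Zfp112, another zinc-finger gene, was at 9.06 to 9.83 CPM where Gm11942 was high and 6.78 to 8.72 CPM where it was low. Sae1, a subunit of the SUMO-activating enzyme, ran opposite, at 77.3 to 82.8 CPM where Gm11942 was high and 90.5 to 95.2 CPM where it was low. In these 4 genes the libraries did not overlap, with gaps of 0.06 to 0.19 on the log2 scale.

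Most close neighbours of the members did not share the split. Of 70 tested genes within 5 places of a member, 1 matched in at least 11 libraries, where 0.298% of all tested genes did. This was Calm3, a calmodulin gene, at 1193 to 1301 CPM where Gm11942 was high and 1272 to 1369 CPM where it was low. None of the genes directly beside a member reached 11. The widest gap can miss a separation, though. Between libraries with high and low Gm11942, the CPM ranges did not overlap for 54 of the 19145 tested genes (0.282%) and for 6 of the 7 members, which were chosen for it. They did not overlap for 15 of the 215 other genes from Cacng6 to Irgc1 (6.98%) and for 4 of 1159 in the rest of chromosome 7 (0.345%). Among the 70 neighbours there were 3 such genes (4.29%). The 70 include the neighbours of Gm11942 and Gm17511, which lie outside this stretch, and none of those was among the 3. Beside Cacng6, Oscar was at 0.932 to 1.41 CPM where Gm11942 was high and 0.416 to 0.719 CPM where it was low. Beside Eps8l1, Rdh13 was at 19.9 to 23.4 CPM where Gm11942 was high and 23.9 to 26.8 CPM where it was low. Trappc6a, a subunit of a vesicle-tethering complex and 2 places from Exoc3l2, was at 5.43 to 6.05 CPM where Gm11942 was high and 6.43 to 10.8 CPM where it was low.

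By the rule for most similar genes, which asked for 12 matching libraries and a gap of at least 0.5 on the log2 scale, 1 gene outside the members was named. This was Gm11677, a processed pseudogene annotated on chromosome 11 that ran opposite to Gm11942. It was at 0.295 to 0.396 CPM where Gm11942 was high and 0.604 to 0.972 CPM where it was low, with a gap of 0.56. Its sequence was 98.2% identical over 978 bases to Zfp93, a zinc-finger gene at number 220 on chromosome 7, between Cacng6 and Irgc1. Zfp93 itself was at 9.23 to 10.7 CPM and matched in 6 libraries, the lowest number possible.

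**Figure D3:**
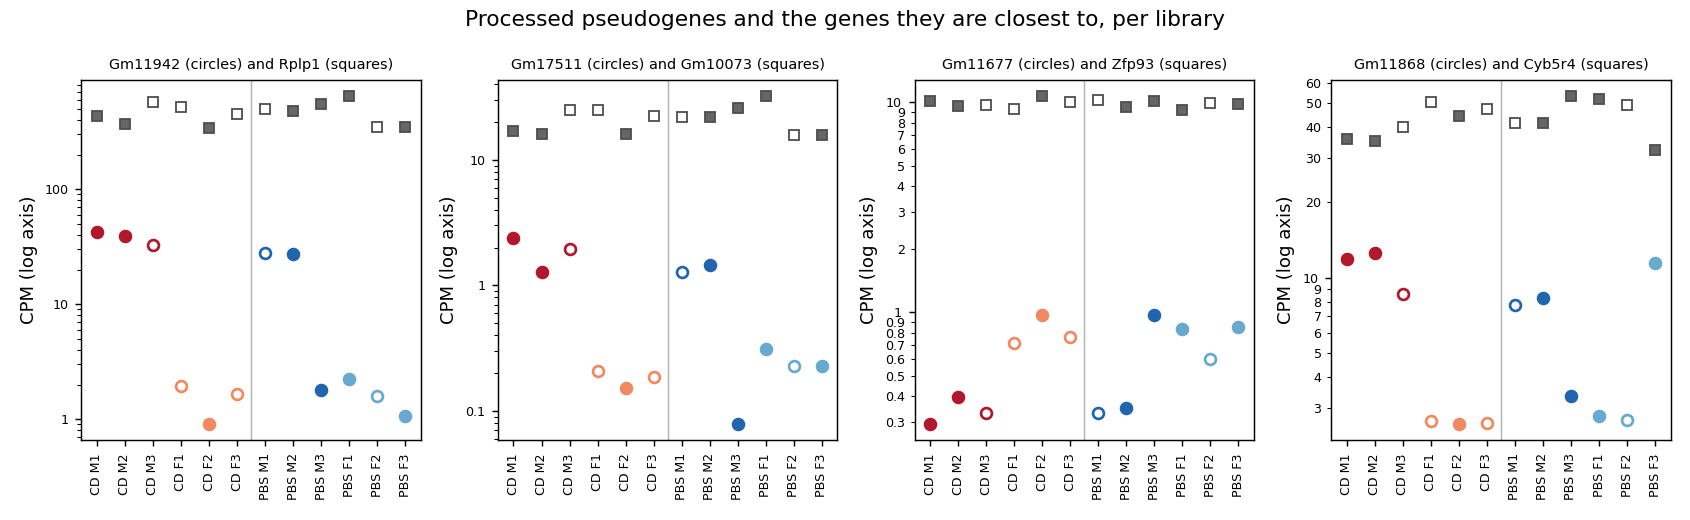
Levels in CPM (log axes) of 4 processed pseudogenes (circles, coloured by label as collagen domain, CD, or PBS, male, M, or female, F) and of a gene close to each in sequence (grey squares) in every library, with open symbols for the 5 libraries whose reads go against a label. Gm11942 and Gm17511 split the 12 libraries alike and Gm11677 does so in the opposite direction, while Rplp1, Gm10073 and Zfp93 do not.

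Set against the labels, Gm11942 was high in 3 of 6 collagen domain libraries and 2 of 6 PBS libraries. It was high in 5 of 6 libraries labelled male and 0 of 6 labelled female. Sorted instead by the sex-linked reads, it was high in 3 of 6 libraries with Ddx3y above Xist and in 2 of 6 with Xist above Ddx3y. By C1qtnf3 reads, it was high in 4 of the 6 libraries with at least 1000 and in 1 of the 6 with fewer. It was high in 2 of the 5 libraries that go against a label and in 3 of the other 7. The split went with the sex label in 11 of 12 libraries, and with the sex-linked reads in 7 of 12.

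The comparison of collagen domain with PBS asked whether the construct changed brain expression, and none of the members passed it. With edgeR's quasi-likelihood test and Benjamini-Hochberg adjustment over 19145 genes, 0 of 7 members and 0 genes in all (0%) were called, with 354 genes at an unadjusted p under 0.05. Gm11942 averaged 19.7 ± 20.2 CPM in collagen domain libraries and 10.3 ± 13.4 CPM in PBS libraries (SD, n = 6 each), a log2 fold change of 0.53 ± 0.53 (SE). Eps8l1 averaged 5.57 ± 2.78 CPM in collagen domain libraries and 4.14 ± 3.61 CPM in PBS libraries, with a log2 fold change of 0.55 ± 0.34, and Gm17511 had one of 0.44 ± 0.50. Cacng6 averaged 2.98 ± 2.05 CPM in collagen domain libraries and 3.49 ± 1.87 CPM in PBS libraries, with a log2 fold change of -0.39 ± 0.31. The other 3 lay between -0.23 and 0.10, and the adjusted p was 0.99987 for each member.

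Without the 5 libraries that go against a label, 2 genes of 19661 (0.0102%) were called for treatment, C1qtnf3 and the immunoglobulin gene Igkv3-12, and 0 members. The log2 fold changes were then 0.81 for Gm11942, 0.88 for Eps8l1 and -0.84 for Cacng6, with adjusted p of 0.68064 or more in edgeR's test. Without PBS male 3, the values for 9330104G04Rik, Cacng6 and Exoc3l2 turned in direction, to -5e-04, 0.0062 and 0.1197. Those for Gm11942, Gm17511 and Eps8l1 were then 0.19, 0.06 and 0.36, each less than the value from 12 libraries by over 1.5 times.

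**Figure D4:**
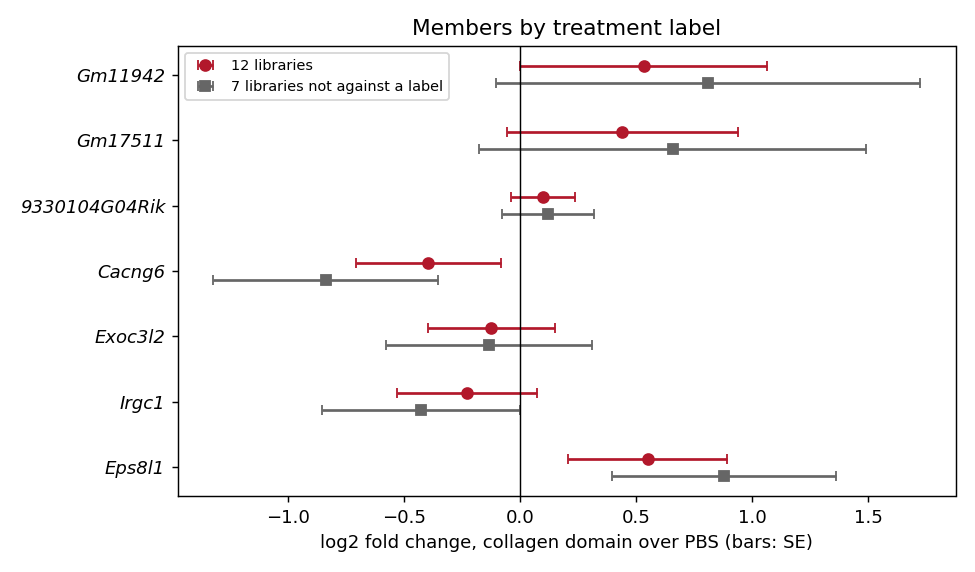
Log2 fold change of each member for collagen domain over PBS (horizontal axis) with its standard error as a bar, from all 12 libraries and from the 7 that do not go against a label. Values run from -0.39 for Cacng6 to 0.55 for Eps8l1 in the 12 libraries, and none passed the threshold.

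Libraries labelled male against those labelled female nearly repeat the split that chose the members, so these values and calls restate it and support nothing. Gm11942 averaged 28.4 ± 14.4 CPM in libraries labelled male and 1.56 ± 0.496 CPM in those labelled female (SD, n = 6 each). The log2 fold changes were 4.10 for Gm11942, 2.59 for Gm17511, 1.45 for Eps8l1 and 0.74 for 9330104G04Rik. They were -1.60 for Cacng6, -1.51 for Exoc3l2 and -1.75 for Irgc1. The same edgeR test called 0 members and 0 genes in all (0%), with 377 genes at an unadjusted p under 0.05. Xist and Ddx3y were thus not called either, in a comparison where the reads of 4 libraries went against the sex label. DESeq2 called 8 genes (0.0418%), 6 of them members, a number that the choice of members set. Without PBS male 3, edgeR called 5 genes (0.0258%), which were Gm11942, Gm17511, 9330104G04Rik, Cacng6 and Exoc3l2. Without the 5 libraries that go against a label, edgeR called 8 genes (0.0407%) and 0 members. The 8 were Kdm5d, Uty, Ddx3y, Eif2s3y, Cldn34c1, Xist, Cldn34c2 and Gm29650. Log2 fold changes were then 3.935 for Gm11942, 2.24 for Gm17511, 1.31 for Eps8l1 and 0.65 for 9330104G04Rik. They were -1.30 for Cacng6, -1.41 for Exoc3l2 and -1.33 for Irgc1.

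The interaction, which asks whether the treatment effect differed between libraries labelled male and female, called 0 members and 0 genes in all (0%) in edgeR, with 263 genes at an unadjusted p under 0.05. Male effect minus female effect ran from -0.81 for Cacng6 to 1.46 for Gm17511 on the log2 scale, with standard errors of 0.60 and 0.98. DESeq2 called 1 gene (0.00522%), Gm15631, and 0 members. Without the 5 libraries that go against a label, male effect minus female effect ran from -0.93 for Exoc3l2 to 2.34 for Gm11942. Collagen domain female 2 was then the only library labelled collagen domain female.

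Relatives of the members were set beside the split, which 0.298% of all tested genes matched in at least 11 libraries. Families this small would thus seldom hold a match besides the member, which was chosen for it. Of 8 calcium channel gamma subunits, 13 exocyst and Sec6-like genes, 8 immunity-related GTPases and 3 tested Eps8 family genes, the member itself was the 1 gene of its family to match in at least 11 libraries. Cacng7 was at 117 to 175 CPM and Cacng2, which traffics AMPA receptors, at 47.5 to 77.9 CPM. Exoc3, the exocyst subunit also called Sec6, was at 98.4 to 127 CPM. Irgm1, an interferon-induced GTPase, was at 8.62 to 11.1 CPM, and Eps8 at 33.5 to 48.0 CPM. None of the 4 families had a gene called for treatment, and the median log2 fold changes of -0.06 to 0.18 stood beside 0.00 over all genes.

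Cell type markers were compared in the same way, and in bulk tissue fewer cells of a type and less RNA per cell cannot be told apart. Of 5 neuronal, 4 astrocyte, 3 oligodendrocyte, 3 endothelial and 3 choroid plexus markers, 0 matched Gm11942 in 11 libraries. Over all tested genes 0.298% matched in at least 11, so 0 in so short a list is near that share. Neuronal markers were abundant, with Snap25 at 2490 to 3046 CPM. Of 3 microglial markers, Cx3cr1 matched in 11 libraries with a gap of 0.12. The summed microglial level was 100.6 to 109.5 CPM where Gm11942 was high and 86.5 to 104 CPM where it was low, with no defining marker at 0, and its part in the result was not tested.

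Markers of cerebellum and hindbrain, which a forebrain sample should largely lack, differed between libraries and did not divide them as Gm11942 did. Where Gm11942 was high, their sum was 540 CPM in collagen domain male 2 and 1.04 to 19.4 CPM in the others. Where Gm11942 was low, the sum was 434 CPM in collagen domain female 2 and 420 CPM in PBS male 3. It was 402 and 241 CPM in PBS females 2 and 3, and 1.16 to 3.57 CPM in the other low libraries. Of the 8 markers, 0 matched in 11 libraries, where 0.298% of all tested genes matched in at least 11. Testis markers bear on Irgc1 because of where that gene is known: Tnp1 was at 0 in all 12 libraries, Prm2 in 11 and Acrv1 in 9, and Prm1 lay at 0.0209 to 0.226 CPM. Of the liver markers, Apoa2 reached 0.668 CPM and Alb 0.0471 CPM.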

How the data were processed

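Whole-number read counts per Ensembl gene, not normalised, were deposited by the authors for all 12 libraries. Per the submitters' processing notes, STAR, DESeq2 and GRCm39 were used in ways not further described, and the read assignment, strand setting and annotation release are not given in the sources used here. Libraries were made with a TruSeq version 2 kit and read as 75 bp pairs on a NextSeq 500, per the labels' protocols.

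Of 43629 IDs, 42462 took symbols and positions from GENCODE M21 (GRCm38), and the 1167 others held 0.144% of reads. Totals of 39272127 to 52323985 reads limit the lowest genes most, and Irgc1 had 1 to 15 reads. Low genes were removed with filterByExpr, given the 4 groups, and libraries scaled by TMM in edgeR 4.0.16 (R 4.3.3). Treatment and sex came from an additive quasi-likelihood fit, and the interaction from a fit of the 4 groups, both robust and adjusted by Benjamini-Hochberg at 0.05. Standard errors were derived from the fold change and its F statistic. Widest gaps used log2 CPM with a prior count of 2. The counts of genes whose ranges do not overlap were added after the values were seen. Copies were found with blastn 2.17.0. Alternatives were DESeq2 1.42.0, relative log expression factors, no filter, a prior count of 0.5, leaving out each library, a replicate block, and leaving out the 5 libraries against a label. Genes were named where they matched Gm11942 in 12 libraries with a gap of at least 0.5, up to 10. Members, lists and alternatives were chosen with earlier results of these data known. Some sequences are not reported here.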

Additional observations from a re-analysis of the deposited data

Results flagged for a closer look

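Among the 6 libraries labelled male, PBS male 3 lay far from the other 5 for 5 of the 7 members. These members were chosen for a split that puts PBS male 3 apart from the other libraries labelled male, so its distance restates the choice and is a description. Gm11942 was at 1.78 CPM in PBS male 3 and at 27.3 to 42.4 CPM in the others, and Gm17511 at 0.0785 CPM in PBS male 3 and 1.28 to 2.38 CPM in the others. 9330104G04Rik was at 3.09 CPM in PBS male 3 and 4.59 to 5.72 CPM in the others, and Cacng6 at 4.08 CPM in PBS male 3 and 0.871 to 1.39 CPM in the others. Eps8l1 was at 1.62 CPM in PBS male 3 and 5.99 to 10.3 CPM in the others. The distance of the outermost library was examined in 28 groups of 6 libraries, with a limit that chance passes in about 1 in 20 groups. The 5 genes share 1 split of the libraries, so they are not 5 separate signs. Neither the treatment nor the sex label of PBS male 3 was contradicted by its reads.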

How the results depend on the processing

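The match of each member to Gm11942 stayed at its number of libraries with a prior count of 0.5, with relative log expression factors and without the filter, while 13, 12 and 15 genes in all matched in 12 libraries under these settings, against 13. Counts of called genes changed in the male and female comparison to 8 in DESeq2, to 8 without the 5 libraries against a label, and to between 0 and 5 when 1 library was left out, the 5 being without PBS male 3. For treatment, 2 genes were called without the 5 libraries, and for the interaction 1 in DESeq2. The replicate block called 0 genes in each comparison. Replicate numbers did not pair the libraries: 3 of 6 same-number correlations were over 0.1, and 2 of 6 libraries correlated best with their own number. Leaving out 1 library turned some treatment values, which ranged from -5e-04 to 0.18 for 9330104G04Rik, -0.52 to 0.0062 for Cacng6 and -0.23 to 0.12 for Exoc3l2. Interaction values turned within -0.26 to 0.14 for 9330104G04Rik, -1.18 to 0.0824 for Cacng6 and -0.52 to 0.42 for Exoc3l2. For 9330104G04Rik the interaction was also 0.0059 with the replicate block and 0.2607 without the 5 libraries, against -0.04. No cause of these changes was tested. Depth limits Irgc1, at 15 reads or fewer, and Gm17511 in its low libraries.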

Other observations

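A second set of genes followed Gm11942 in 11 of 12 libraries and parted from it in PBS female 3. Their gaps were at least 0.5 on the log2 scale, and they were singled out after their values were seen. Mns1, which encodes a protein of cilia and sperm flagella and lies on chromosome 9, was at 4.08 to 5.01 CPM in the 5 libraries with high Gm11942. It was at 4.96 CPM in PBS female 3 and at 1.67 to 2.26 CPM in the other 6. Trim43b, also on chromosome 9, was at 0.373 to 0.565 CPM in the 5 libraries, at 0.321 CPM in PBS female 3 and at 0.0833 to 0.186 CPM in the other 6.

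Gm11868, a processed pseudogene annotated on chromosome 4, was at 7.73 to 12.5 CPM in the 5 libraries, at 11.5 CPM in PBS female 3 and at 2.59 to 3.35 CPM in the other 6. Its sequence was 98.0% identical over 1485 bases to Cyb5r4, a cytochrome b5 reductase gene on chromosome 9. Cyb5r4 was at 35.3 to 41.5 CPM in the 5 libraries, at 32.5 CPM in PBS female 3 and at 44.2 to 53.2 CPM in the other 6, so it was lower wherever the pseudogene was higher. How reads shared by the pair were assigned was not tested.

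With 1 library on the other side, collagen domain male 1, Gm16251 and Sult1c2 matched in 11 libraries. Gm16251, annotated as antisense, was number 211 in order on chromosome 7, between Cacng6 and Irgc1. It was at 0 to 0.123 CPM where Gm11942 was high and 0.187 to 0.710 CPM where Gm11942 was low. The kit does not keep strand, so its reads and those of the gene it overlaps cannot be told apart. Sult1c2, a sulfotransferase gene on chromosome 17, had 3 to 14 reads. Crip1 on chromosome 12 and Ubl7 on chromosome 9 matched in 12 libraries with gaps of 0.17 and 0.04.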
